A study of Mus musculus with 3 samples.

Results

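At 854 places in sparsely occupied stretches of the mouse autosomes, a peak of endogenous Utf1 touched a peak of biotin-tagged Utf1 while the highest points of the pair lay more than 250 bp apart. These offset sites are 8.13% of the 10506 endogenous peaks (95% exact binomial interval 7.61 to 8.67). They were chosen by the measured positions themselves. An endogenous peak on chromosomes 1 to 19 had to overlap a biotin peak by at least 1 bp, every overlapping biotin summit had to be over 250 bp away, and its summit had to lie in a fixed 1 Mb window with at most 40 biotin summits. Overlap, summit distance and regional density are therefore given as description, with no test.

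Utf1 is a chromatin-bound protein of pluripotent cells and germ cells that is switched off as embryonic stem cells differentiate. It is known as a regulator of genes that carry both activating and Polycomb-type histone marks. In chromatin immunoprecipitation with sequencing (ChIP-seq), crosslinked DNA fragments held by a protein are enriched and sequenced. A peak is a stretch with more sequenced tags than its background, and the summit is the base where the tags pile up highest.

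All samples came from KH2, an established mouse embryonic stem cell line built for the insertion of transgenes. The cells were kept in serum medium with LIF on irradiated CF1 mouse embryonic fibroblasts. There were 3 samples with 1 library each: a ChIP of biotin-tagged Utf1, one of the endogenous protein, and an unprecipitated whole-cell extract, of which no values were analysed here. The antibody label is the Utf1 antibody ab24273 for both ChIPs, although streptavidin beads are described for pulling down the tagged protein. The labels do not name the promoter that drives the tagged protein. No group has a replicate, and every interval below covers counting error only.

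Each list gives, per peak, a tag count, a fold enrichment over background and a false discovery rate, all computed by the authors. The biotin list was the longer one, with 152608 peaks. The files hold tags inside peaks only and so do not give the depth of the libraries. For that reason folds and tags were compared within a list and never between the lists. Coordinates are mm9, 1-based. Neither the DNA sequence of the sites nor their position relative to genes was analysed here.

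With the limit set at 250 bp, the offset sites were the larger part of what the lists shared in these regions. The peak-poor windows held 6333 endogenous peaks, and 1083 of them overlapped a biotin peak. Of these 1083, the 854 offset sites made up 78.9% (76.3 to 81.3), and the other 229 had a summit within 250 bp. This share depends on the limit: 934 peaks counted as offset at over 150 bp and 554 at over 500 bp. As a share of all peak-poor endogenous peaks the offset sites were 13.5%, which is a count the rule itself fixes. In windows with more than 40 biotin summits, 483 of 715 shared peaks were offset by the same measure, 67.6% (64.0 to 71.0).

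The distance between the summits was most often 400 to 700 bp. This is close to the length of the library fragments, described as between 300 and 600 bp. At 566 of 854 sites the endogenous summit also rests on up to 15 tags. How exactly such summits are placed was not tested. The offsets are therefore distances between listed summits and not resolved binding positions. The median offset was 599.5 bp, with quartiles of 449.25 and 804.5 bp and a range of 252 to 4954 bp. Between 250 and 400 bp there were 104 offset sites per 100 bp of distance. The number was 144 between 400 and 500 bp, 129 between 500 and 600 bp, and 122 between 600 and 700 bp. It was 86 between 700 and 800 bp and 16.6 between 1000 and 1500 bp. Shared peaks within 250 bp, which are not members, numbered 91.6 per 100 bp. Shared summits in these windows were thus less dense on top of the biotin summit than at 400 to 700 bp from it.

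**Figure D1:**
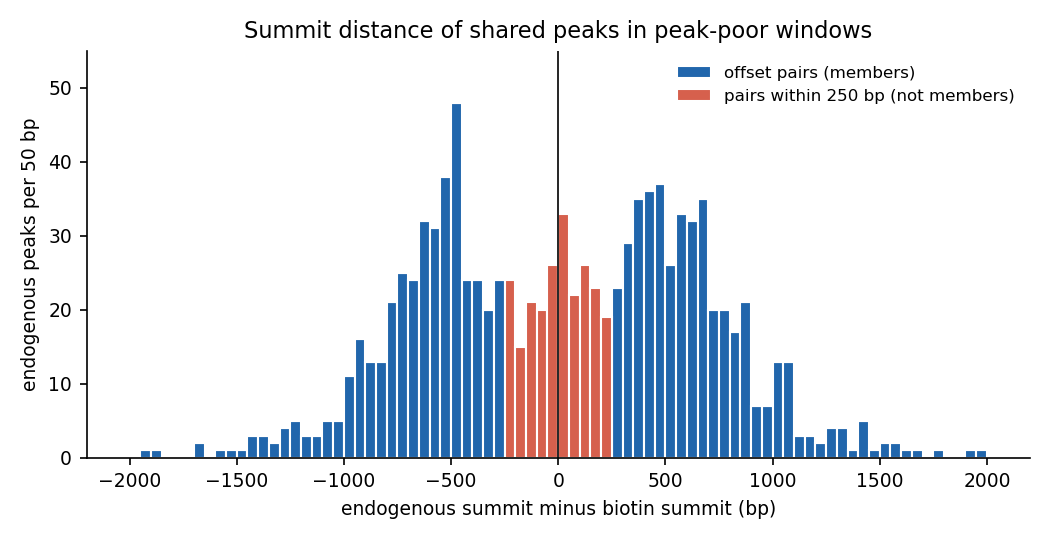
Signed distance from the biotin summit to the endogenous summit (bp) for shared peaks in peak-poor windows, in bins of 50 bp, with offset sites in blue and pairs within 250 bp in orange; 14 offset sites beyond 2000 bp are not drawn. The blue bars rise above the orange ones on either side, up to 48 and 37 per bin against at most 33, with the median offset at 599.5 bp.

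Both sides of the biotin summit were used to a similar degree. The endogenous summit lay toward higher coordinates at 442 of 854 sites, 51.8% (48.3 to 55.2). The median offset was 604 bp on that side and 596.5 bp on the other, where 412 sites lay.

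The endogenous summits lay about where the biotin peaks ended. At 456 sites, 53.4% (49.98 to 56.8), the endogenous summit was inside the biotin peak, and at 398 sites it was outside. Measured from the biotin edge on the same side, with positions inside the biotin peak written as negative, the median endogenous summit was at -18.5 bp and the quartiles at -215.75 and 148 bp. At 483 sites (56.6%, 53.2 to 59.9) it was within 200 bp of that edge. The rule limits this position: a summit had to lie over 250 bp from the biotin summit while its peak still overlapped the biotin peak. The position is therefore a description. The share inside also rests on counting small overlaps: where 50% of the shorter peak had to be covered, it was 86.3%. The edge itself was a median of 623 bp from the biotin summit.

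The overlap varied from a touch to full nesting. Its median was 360 bp, or 55.7% of the endogenous peak. At 109 sites (12.8%) the peaks shared less than 100 bp, and at 143 sites (16.7%) the endogenous peak lay wholly inside the biotin peak. The biotin summit was covered by the endogenous peak at 100 sites, 11.7% (9.63 to 14.1).

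**Figure D2:**
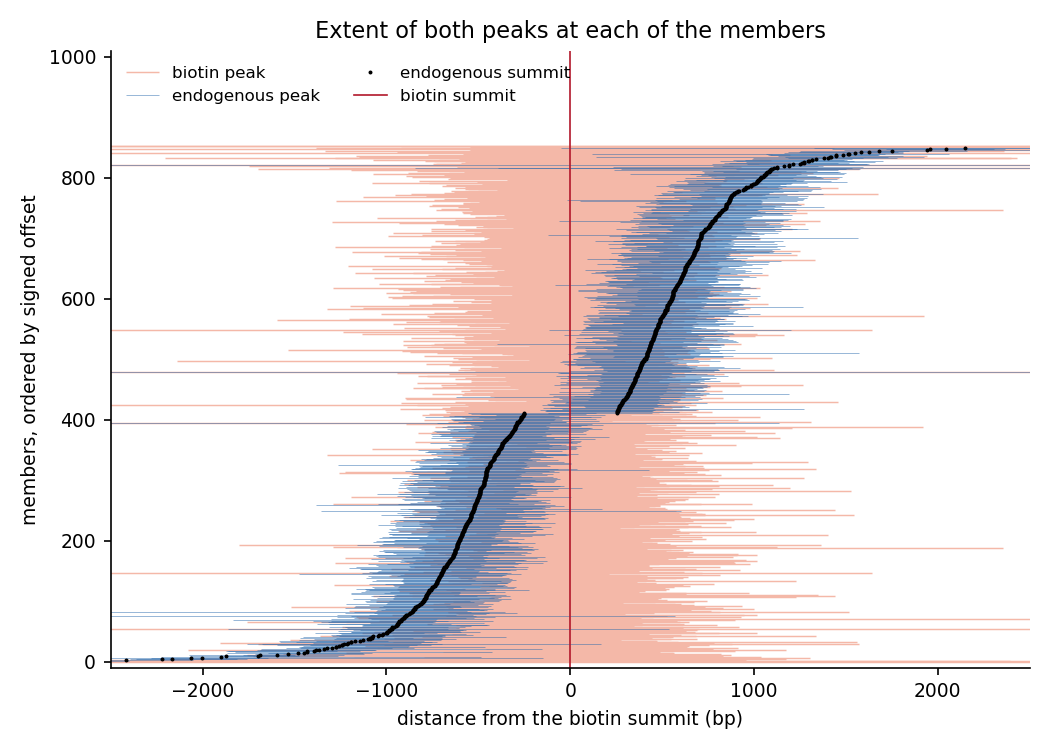
Each row is 1 offset site, aligned on its nearest biotin summit (red line) and ordered by signed offset; pink lines are biotin peaks, blue lines endogenous peaks and black dots endogenous summits, against distance in bp. The dots lie near the ends of the pink lines on both sides, a position limited by the overlap and distance that the rule required. For 7 sites with an offset beyond 2500 bp the summit is outside the plot.

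The endogenous peaks at these sites were weak, as were most peaks of that list. They had a median of 14 tags (quartiles 13 and 17), and 323 of them (37.8%, 34.6 to 41.2) had 13 tags, the smallest count listed. That share was 43.1% (41.7 to 44.4) among unshared peaks of the same windows and 40.4% in the whole list, so offset sites were not richer in the smallest peaks. A count of 13 has an exact Poisson interval of 6.92 to 22.2. Up to 15 tags were listed at 566 sites, 21 to 100 tags at 87 and over 100 tags at 8. Their median width was 599.5 bp, close to the 597 bp of the whole list. The listed false discovery rate had a median of 1.55%, beside 1.51% in the whole list. None was at or under 0.5%, the highest rate in the biotin list. That is 0 of 854 and allows a share of up to 0.351%, taken as 3 counts of 854. Such rates were rare throughout, at 10 of 5250 unshared peaks (0.190%, 0.0914 to 0.350) and 69 of 10506 in the whole list (0.657%).

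Their fold enrichment was somewhat lower than that of unshared endogenous peaks in peak-poor windows. The median fold was 1.5 (quartiles 1.29 and 1.72) and the largest 2.54. Unshared peaks of the same windows had a median of 1.57 (1.37 and 1.76), and peaks within 250 bp of a biotin summit had 1.54 (1.32 and 1.76). A fold of 2 or more was listed for 49 of 854 offset sites, 5.74% (4.27 to 7.51), against 9.99% of the whole endogenous list. The share was 8.42% (7.68 to 9.20) among the 5250 unshared peaks and 10.04% (6.47 to 14.7) among the 229 within 250 bp. The last interval overlapped that of the offset sites. Offset peaks of denser windows reached 10.6% (7.96 to 13.6), with a median fold of 1.57. Among peaks of up to 20 tags the shares were 4.35% (3.01 to 6.05) for offset sites and 6.03% (5.37 to 6.74) for unshared peaks. For peaks within 250 bp the share was 7.96% (4.62 to 12.6), and these intervals overlapped. The quartile ranges of all these sets overlapped widely, and the fold was not tested across replicates.

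The biotin peaks beneath them, in contrast, tended to be stronger than biotin peaks of peak-poor windows without an endogenous peak, with overlapping quartile ranges. The 854 sites lay on 842 biotin peaks, which is 3.47% of the 24233 biotin peaks in peak-poor windows. These partners had a median fold of 6.255 (quartiles 3.96 and 8.27) and a median of 91.5 tags (49 and 173). Biotin peaks of the same windows without any endogenous peak had a median fold of 4.31 (3.30 and 6.55) and 49 tags (32 and 101). Partners of the peaks within 250 bp lay between, with a median fold of 5.16 and 70 tags. Partners were also wider, at a median of 1214.5 bp against 1006 bp without an endogenous peak, and a wider peak has more room to be overlapped. They stood farther from the next biotin summit, a median of 23.9 kb away against 13.98 kb over all peak-poor biotin peaks.

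**Figure D3:**
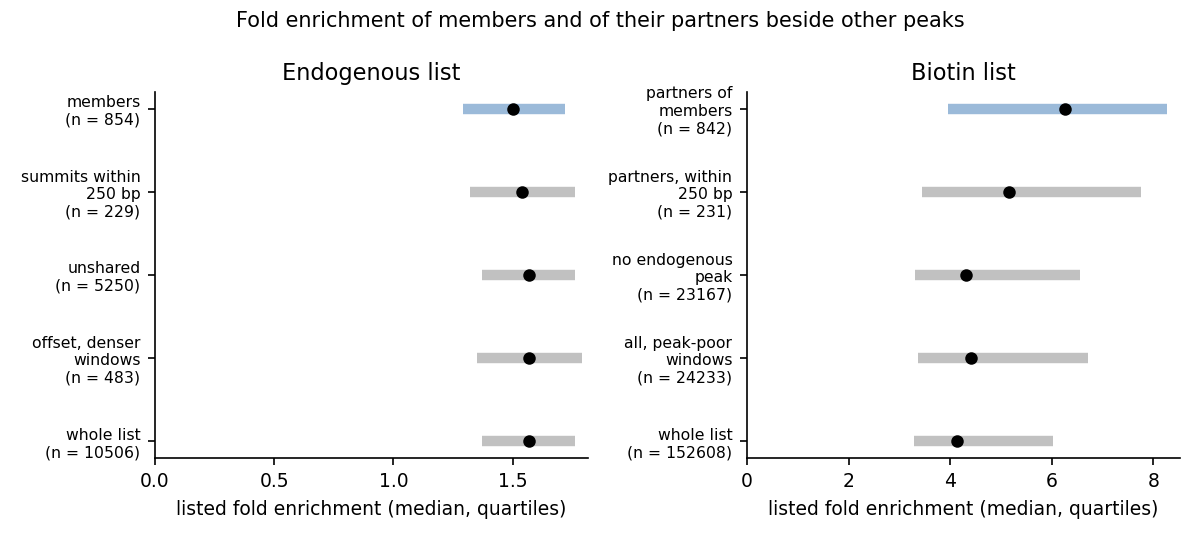
Listed fold enrichment (dots, medians; bars, lower to upper quartile) of offset sites and other endogenous peaks on the left and of their biotin partners and other biotin peaks on the right, with the number of peaks per set. Offset sites have the lowest endogenous median of the 5 sets, 1.5, and their partners the highest biotin median, 6.255.

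Offset sites were found most often on strong biotin peaks. In the strongest fold quintile of peak-poor biotin peaks, with folds of 7.24 to 25.34, 318 of 4846 carried one, 6.56% (5.88 to 7.30). In quintile 4 the share was 3.96% (3.43 to 4.55) and in quintile 3 it was 2.77% (2.32 to 3.27). The weakest 2 quintiles had 2.27% (1.87 to 2.73) and 1.82% (1.46 to 2.23). Peaks with summits within 250 bp showed a smaller range, from 0.640% (0.435 to 0.907) in quintile 2 to 1.36% (1.05 to 1.73) in quintile 5.

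Width moved with fold, the median biotin width being 785 bp in the weakest quintile and 1517 bp in the strongest. Peaks were therefore also split into quintiles of width. At widths of 930 to 1116 bp, 6.57% (4.54 to 9.15) of fold quintile 5 carried an offset site, 3.41% (2.55 to 4.44) of quintile 3 and 3.66% (2.28 to 5.54) of quintile 1. At 1117 to 1475 bp the shares were 6.98% (5.78 to 8.33) in quintile 5, 3.11% (2.02 to 4.56) in quintile 3 and 4.55% (2.62 to 7.28) in quintile 1. Above 1475 bp the order was different, with 11.8% (7.34 to 17.6) in quintile 1, where only 170 peaks lay, 2.999% (2.13 to 4.09) in quintile 4 and 6.39% (5.48 to 7.40) in quintile 5. Quintile 5 was thus above quintile 3 in each of these 3 width classes, while among the widest peaks the weakest quintile had the largest share. The intervals of quintiles 5 and 1 overlapped in all 3. In the 2 narrower classes few peaks were in quintile 5. Its share was 5.04% (1.87 to 10.7) of 119 peaks at 778 to 929 bp, against 2.30% (1.55 to 3.29) in quintile 3. Up to 777 bp it was 4.76% (0.121 to 23.8) of 21 peaks, against 1.65% (0.856 to 2.87), so these intervals overlapped too.

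**Figure D4:**
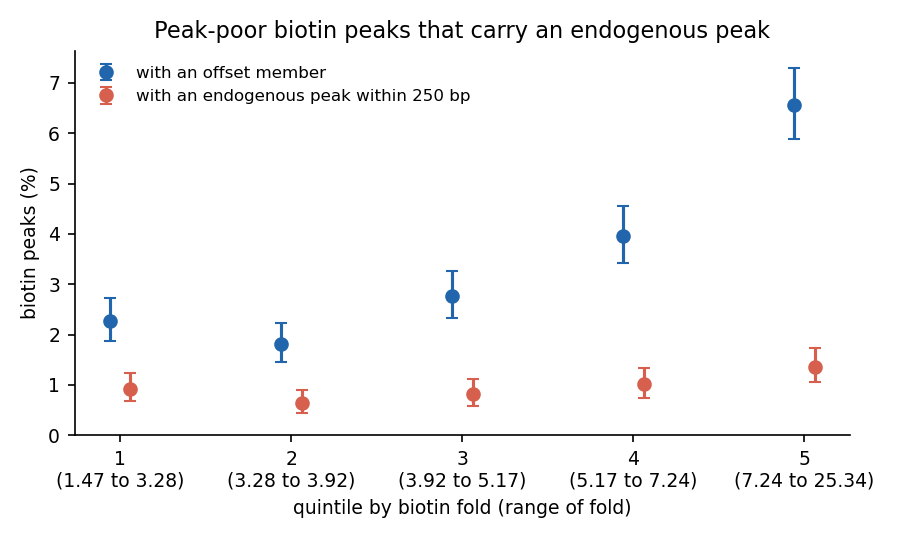
Share of peak-poor biotin peaks (%) that carry an offset site (blue) or an endogenous peak within 250 bp (orange), by quintile of biotin fold, with 95% exact binomial intervals. The blue share is 6.56% in the strongest quintile and 2.27% in the weakest, and the orange share stays between 0.640 and 1.36%.

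Endogenous summits were also counted around each biotin summit without the requirement of overlap. This count includes the offset sites and uses the same distances as the rule, so it is a description and no separate support. Around the strongest biotin peaks the endogenous summits were denser beside the biotin summit than on it. Around the strongest quintile there were 4.23 endogenous summits per 100 bp per 1000 biotin peaks at 300 to 600 bp (95% Poisson interval 3.52 to 5.05) and 4.09 (3.39 to 4.90) at 600 to 900 bp. Within 300 bp the number was lower, 2.65 (2.09 to 3.31). At 2 to 3 kb it was 1.64 (1.40 to 1.92) and at 7 to 10 kb 0.368 (0.302 to 0.445). Around the weakest quintile the numbers were 1.75 (1.31 to 2.31) within 300 bp and 2.17 (1.66 to 2.77) at 300 to 600 bp. They fell to 0.605 (0.519 to 0.701) at 7 to 10 kb. In all 5 quintiles the bin at 300 to 600 bp held the highest number, but its interval lay apart from that of the bin within 300 bp in quintile 5 alone and overlapped it in quintiles 1 to 4. A summit near 2 biotin summits was counted at each.

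**Figure D5:**
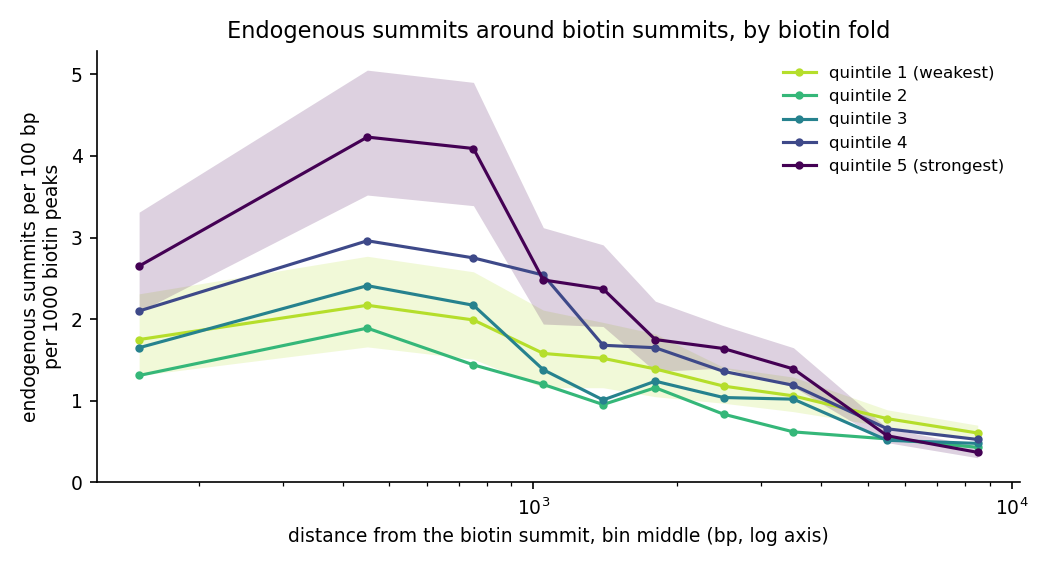
Endogenous summits per 100 bp per 1000 biotin peaks against distance from the biotin summit (bp, log axis), by quintile of biotin fold in peak-poor windows, with 95% Poisson bands for quintiles 1 and 5. Quintile 5 peaks at 300 to 600 bp with 4.23 and falls to 0.368 at 7 to 10 kb, and quintile 1 peaks at 2.17.

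Among the offset sites themselves, stronger partners went with larger offsets, while the endogenous fold followed the partner's fold little. Sites were split into 4 equal groups by the fold of the nearest partner. In the group with the weakest partners (folds 2.07 to 3.96) the median offset was 545.5 bp and the median biotin width 960 bp. With the strongest partners (8.27 to 14.31) they were 702 and 1521 bp. The endogenous summit was inside the biotin peak at 42.5% (35.8 to 49.4) of the first group and at 64.3% (57.5 to 70.7) of the last. The median endogenous fold was 1.5 in the first group, 1.57 in the next, 1.48 in group 3 and 1.39 in the last, so its course was not steady. Shares with a fold of 2 or more were 4.67% (2.26 to 8.43), 8.92% (5.46 to 13.6), 4.21% (1.94 to 7.83) and 5.16% (2.61 to 9.05) in the same order, with overlapping intervals. Across the 854 sites Spearman's rho was 0.48 between the offset and the distance from biotin summit to edge, and 0.19 between the offset and the biotin fold. Between the endogenous fold and the biotin fold it was -0.08, and between the endogenous fold and biotin tags -0.24. These are descriptions over sites of the same 2 libraries, and the offset includes part of the biotin peak by construction.

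The next sites were chosen for a high fold in both lists at once, by ranks among the 854 offset sites, and are therefore not typical of them. The leading site, chromosome 1 from 130200877 to 130201433, had 18 endogenous tags (10.7 to 28.4) and the largest endogenous fold among offset sites, 2.54. Its partner at 130200129 to 130201866 had 208 tags (181 to 238) and a fold of 10.86, and the summits were 414 bp apart. The endogenous peak was nested in the biotin peak.

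On chromosome 5 there were 2 of the leading sites. The site at 71917570 to 71918408 had a fold of 2.35 from 23 tags, and its summit was 587 bp from that of a biotin peak with a fold of 10.69, 100 bp past the edge. The other, at 41881997 to 41882592, had a fold of 2.15 from 17 tags. It overlapped the last 113 bp of a biotin peak with a fold of 11.2, at an offset of 1484 bp. The first pair overlapped by 402 bp, so both sites straddled a biotin edge.

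The site on chromosome 15 at 5217562 to 5218338 reached an endogenous fold of 2.12 from 22 tags beside a biotin fold of 11.03, with an offset of 569 bp. On chromosome 2, 46983660 to 46984382 had a fold of 2.15 from 16 tags beside 10.61, offset by 491 bp toward lower coordinates. On chromosome 12, 43844858 to 43845960 had the most tags of the leading 8, 32 (21.9 to 45.2), a fold of 1.83, a biotin fold of 11.51 and an offset of 919 bp. Chromosome 7, 67467509 to 67468222, had folds of 1.96 and 9.83, and chromosome 3, 33148741 to 33149789, had 2.04 and 10.72. Over the 8 sites the offset ran from 414 to 1484 bp, and 5 had their summit inside the biotin peak.

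Sites with the largest endogenous fold did not all have strong partners. After the leading site came chromosome 3 at 70867950 to 70868565, with a fold of 2.41, 15 tags and a biotin fold of 7.22. The site at 49024828 to 49025783 on chromosome 4 had the same fold of 2.41 with 23 tags, but a biotin peak of only 39 tags (27.7 to 53.3) and a fold of 4.65, at an offset of 264 bp. Then came 11 sites tied at a fold of 2.35, one of them the site on chromosome 5 described above. The first of them by position were on chromosome 1, at 52102504 to 52103274 and 119151478 to 119152037, beside biotin folds of 5.17 and 7.71.

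The 5 strongest partners carried endogenous peaks of common size but mostly low fold. Most of their folds were under 1.29, the lower quartile of all offset sites, beside a median of 1.5. The largest partner fold, 14.31 with 151 tags, belonged to chromosome 19, 15336768 to 15337816. The endogenous peak at its lower edge, 15336369 to 15336948, had 13 tags and a fold of 1.21. On chromosome 3 the biotin peak 55412137 to 55414833, whose fold was 13.96 with 449 tags, enclosed an endogenous peak with a fold of 1.25, 1072 bp from its summit. The next 3 partners, on chromosomes 3, 5 and 12, had folds of 12.56 to 12.58, and their endogenous peaks had folds of 1.67, 0.92 and 1.5. All 5 of these endogenous peaks had 13 to 16 tags, around the median of 14.

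A few biotin peaks carried offset sites on both sides of the summit. This was so for 14 of 842 partners, 1.66% (0.912 to 2.77), with 29 offset sites in all, while 823 partners carried a single one. The strongest of them, with a biotin fold of 10.72, was chromosome 3, 33148044 to 33149698. Endogenous summits lay 302 bp below and 737 bp above its summit, with 14 and 29 tags and folds of 1.43 and 2.04. On chromosome 2 the biotin peak at 47496722 to 47498709 had flanking summits at 887 bp below and 553 bp above, both with 13 tags. The peaks at 129029825 to 129031405 on chromosome 10 and at 42579075 to 42581043 on chromosome 5 had flanking summits 1034 and 931 bp apart. The flanking summits were under 1500 bp apart in 11 of the 14 cases, with a median of 1391 bp over all 14. Sites that share a biotin peak are not independent.

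A small group with very many tags was defined by a fixed cut of over 100 tags. Sites just under the cut could have similar traits. Chromosome 8 at 71995467 to 71997425 had 95 tags and a fold of 0.66, and chromosome 4 at 146775265 to 146777642 had 93 and 0.85. The 8 sites with over 100 tags (128 to 596) held 2340 of the 16254 tags at offset sites, were 3399 to 7841 bp wide and had endogenous folds of only 0.84 to 1.39. Their partners had folds of 2.07 to 4.18. The largest, on chromosome 4 at 3006121 to 3013961, gave a fold of 1.21 from 596 tags. Chromosome 8 held 4 of the 8, among them 19755007 to 19761164, 19963785 to 19969866 and 19719567 to 19724368, with 474, 308 and 219 tags. On chromosome 18, 3114104 to 3120391 had 285 tags. Of the 14 sites with an offset over 2000 bp, 3 belonged to this group. Without it the median offset was 598 bp.

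The largest offsets were found on very wide biotin peaks. The top values, 4954 and 4910 bp, lay on chromosome 10 at 57699728 to 57700878 and on chromosome 8 at 56196816 to 56198247, on biotin peaks 11501 and 12221 bp wide. Both had a fold under 1, 0.96 and 0.80. The smallest, both 252 bp, were on chromosome 3 at 77037415 to 77037992, where 13 tags gave a fold of 1.45, and on chromosome 12 at 38801086 to 38801781, with 15 tags and 1.39. Just past the limit, and so not members, were peaks on chromosome 11 at 26327216 to 26327923, with an offset of 249 bp, 17 tags and a fold of 1.32, and on chromosome 1 at 142806080 to 142806648, with 245 bp, 13 tags and 1.11. At the density limit, the 34 offset sites in windows with 38 to 40 biotin summits had a median offset of 660 bp and a median fold of 1.38. The 27 offset peaks in windows with 41 to 43, outside the limit, had 631 bp and 1.43.

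Offset sites were spread over 617 windows, of which 438 held a single one. The highest number, 5, was found in 6 windows, the first 3 being those that start at 15 Mb on chromosome 3 and at 3 Mb on chromosomes 4 and 6. The window at 15 Mb had 15 peaks of either list, and those on chromosomes 4 and 6 had 36 and 34 biotin summits. All 19 autosomes have their first listed peaks in the window at 3 Mb, and those windows held 21 offset sites, 2.46%, beside 2.40% of unshared peaks. By regional density the share of endogenous peaks that were offset was 14.3% (12.2 to 16.6) with up to 10 biotin summits per window, 13.7% (12.4 to 15.0) with 11 to 20 and 12.96% (11.7 to 14.3) with 21 to 40. These intervals overlapped. Outside the limit the share was 13.2% (11.5 to 15.0) with 41 to 80 and 13.5% (11.6 to 15.5) with 81 to 150. In the densest windows, with 151 to 319, it was higher, 121 of 559 or 21.6% (18.3 to 25.3), with a median offset of 735 bp. By chromosome the share among peak-poor endogenous peaks ran from 7.18% (3.88 to 12.0) on chromosome 17 to 17.8% on chromosomes 8 (13.5 to 23.0) and 19 (11.4 to 25.9), with the most sites, 87, on chromosome 3.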

How the data were processed

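ChIP-seq peak lists of 2 of the 3 samples were used, 1 list per library. Per the submitters' processing notes the build is mm9, and BWA 0.5.7 and R 2.15.2 were used in roles that are not stated there. No source used here names the peak caller. The deposited tag counts are unscaled whole numbers, as the values show. The fold enrichment deposited per peak is a linear ratio, and the deposited false discovery rate a percent, per the file headers. The deposited score per peak, 10 times a −log10 p by its header, served only to rank peaks in 1 alternative. Positions and widths are in bp per the file headers, and the summit position is the start plus the listed summit minus 1.

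Pairs of overlapping peaks were found with Python 3.11.15, numpy 2.4.6 and pandas 2.3.3. Where 2 biotin peaks overlapped a site (8 sites), the offset refers to the nearer summit. The 1798 shared autosomal endogenous peaks were checked with bedtools 2.31.1, which gave the same number, and the offset calculation was tested on simulated pairs. Shares carry exact Clopper-Pearson intervals and counts exact Poisson intervals at 95% (scipy 1.17.1). The intervals of shares and of summit counts treat each peak as independent, which sites that share a biotin peak are not. Those of tag counts treat each read as an independent molecule, which PCR copies are not. Figures used matplotlib 3.10.9. No test between groups was made, because each group has 1 library.

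Named regions were the 8 sites with the smallest sum of ranks by fold in both lists, the 5 largest by endogenous fold, by partner fold and by tags, the 4 strongest biotin peaks with sites on both sides, the extremes of the offset, peaks just outside the limit and the 3 fullest windows, with ties taken in order of position. The offset sites and these rules were chosen with earlier results of these data known. A gene annotation and genome of mm9 were not used here.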

Additional observations from a re-analysis of the deposited data

Results flagged for a closer look

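On chromosome X, which the definition of the offset sites leaves out, 108 of 557 endogenous peaks in peak-poor windows met all other criteria. That is 19.4% (16.2 to 22.9), beside 13.5% (12.7 to 14.4) on the autosomes. Their median offset was 588 bp, their median fold 1.47 and their median tag count 14. They are given here because they are a signal outside the autosomes to which the report is limited, and the difference between X and the autosomes was not tested.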

How the results depend on the processing

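Under 13 settings, 44 alternative values were obtained for 10 results. Of these, 32 stayed within the interval of the reported value, or within 1.5 times the count, and 12 moved. The 854 sites fell to 476 when 50% of the shorter peak had to be covered, to 554 with summits over 500 bp apart, to 515 with at most 20 biotin summits per window, to 288 with endogenous peaks of more than 15 tags, and to 253 and 238 in the stronger 50% of each list by p-value and by fold. Each of these settings keeps fewer peaks by construction. With the 50% overlap the median offset was 509.5 bp and 86.3% of endogenous summits lay inside the biotin peak. The share inside thus depends on counting small overlaps, as a larger required overlap itself favours summits inside. The share within 200 bp of the biotin edge was not recalculated. With more than 15 tags the median offset was 620.5 bp, the endogenous medians were 18 tags and a fold of 1.61, and the biotin median was 111 tags. That limit raises the endogenous tag median by construction. No paired analysis was possible because each group holds 1 library, and for the same reason none could be left out. Unknown library depth limits any statement on how many sites each list could hold.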

Other observations

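Within their own peaks, the endogenous summits of offset sites were not spread evenly. At 319 of 854 sites, 37.4% (34.1 to 40.7), the summit lay at 30 to 35% or 65 to 70% of the peak's length. Unshared endogenous peaks of the same windows had nearly the same share, 39.2% (37.9 to 40.6) of 5250. The bands were chosen after the distribution had been seen. The next endogenous summit was a median of 47.4 kb from an offset site and 45.5 kb from an unshared peak, with lower quartiles of 5.91 and 11.9 kb.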
